A study of Mus musculus with 12 samples.

Results

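Preosteoclasts from the mandible of ligated mice were compared between LSD1cKO and LSD1WT, genome-wide and outside the interferon and lipid genes. The comparison holds 4 of the 12 libraries of the series. These are LSD1cKO replicates 1 and 2 and LSD1WT replicates 1 and 3, chosen by their titles. All 4 came from female mice that carried a ligature for 7 days, a silk thread around the molars that induces periodontitis. According to the study's methods the thread was tied to molars of the upper jaw, whereas the marrow cultured here came from the mandible. The mice were 2 months old by the series description and 3 months old by the study's methods for sequencing. Marrow was flushed and cultured for 2 days with M-CSF and RANKL, the cytokines that drive osteoclast formation, and polyA RNA was sequenced. In LSD1cKO mice, Lsd1 (Kdm1a) was deleted with LysM-Cre, which is driven by the Lyz2 promoter and is therefore active in monocytes, macrophages, granulocytes and their osteoclast progeny, and not in stromal cells of the same marrow. The study's list of mice names C57Bl/6J animals beside the floxed and Cre lines, and its methods call the controls Lsd1LysM-WT, a name that leaves their Cre status unclear. The other 8 libraries, from femurs of ligated and unligated mice, are used below only where they show how far the mandible differs or how libraries vary.

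LSD1 removes methyl groups from lysine 4 and lysine 9 of histone H3. It usually acts within the CoREST complex, which is brought to DNA by the zinc-finger repressors GFI1 and GFI1B in blood cells, and its loss commonly relieves genes that these repressors hold down. Preosteoclasts are mononuclear cells of the monocyte and macrophage lineage that have begun to express resorption genes but have mostly not yet fused. In this lineage, RANKL signalling induces NFATc1 and PRDM1 (BLIMP1), which turn on osteoclast genes and turn off factors such as IRF8 and BCL6 that keep cells macrophage-like.

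The 4 libraries held 24101140 to 30770886 counts, and 2.56% to 3.45% of these were mitochondrial. Levels are given as CPM, the counts scaled to a common library total with a correction for library composition. Kdm1a stood at 71.0 and 71.3 CPM in LSD1WT, against 24.3 and 22.1 CPM in LSD1cKO, a log2 fold change of -1.62 ± 0.13 (SE, adjusted p = 1.01e-35). Lyz2, whose promoter drives the Cre, was at 1283 and 1313 CPM in LSD1WT, against 1232 and 1592 CPM in LSD1cKO, and did not pass the test. LSD1WT replicate 3 is titled mandible, although its library name reads femur. The oral epithelial genes Odam, Krt14 and Krt5, which were chosen after their values were seen, had reads in all 4 mandible libraries, this one included, and stood at 0 in all 8 femur libraries. Osteoclast genes such as Acp5, Ctsk and Mmp9 each stood at 2959 CPM or more in every mandible library, in keeping with the label preosteoclast.

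The LSD1WT pair was far closer than any other pair of the series. Its biological coefficient of variation, which is the spread between libraries beyond counting error, was 0.0245, against 0.094 for the mandible LSD1cKO pair and 0.115 to 0.581 for the femur pairs. Only 8 of 13581 genes lay over 2-fold apart in the LSD1WT pair. One of these was Rn18s-rs5, a ribosomal RNA repeat chosen after its values were seen, at 1373 and 3138 CPM. The labels name different mice, but the LSD1WT libraries were summed and counted as 1 sample. The spread between samples therefore came from the 2 LSD1cKO libraries. edgeR draws the spread of each gene toward that of genes at similar levels. A gene whose 2 LSD1cKO libraries lie far apart can therefore still pass. The labels do not say more about how replicates were made, and the p-values measure the spread between these samples alone.

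In this comparison, tested by edgeR's quasi-likelihood method and adjusted after Benjamini and Hochberg, 2142 of 15217 genes were higher in LSD1cKO (14.1% of those tested) and 1684 were lower (11.1%). Of these, 2019 higher and 1675 lower genes lay outside the interferon and lipid lists. Below, "rose" and "fell" mark genes with an adjusted p under 0.05 in this test. For each gene list below, the shares over all genes, 14.1% risen and 11.1% fallen, are the background. In bulk samples, fewer cells of a type and less RNA per cell cannot be told apart. The same mandible comparison was also run with the spread taken from all 6 LSD1cKO libraries of the series. Each LSD1cKO condition was its own group, so the femur libraries add to the spread and are not compared with LSD1WT. In this fit 130 genes were higher (0.821% of 15829) and 4 were lower (0.0253%), and each of these also passed in the mandible libraries. Below, "passed with the 6 LSD1cKO libraries" refers to this fit and does not mean a change in the femur. The 4 lower genes were Kdm1a, Ddr2, Timp3 and Acta2. With the spread of all 12 libraries, edgeR called 0 genes in either direction (0% of 15425), while 744 had an unadjusted p under 0.05. DESeq2 called 146 on the same 12 libraries. The femur LSD1WT pairs, at 0.581 and 0.534, were the most variable of the 12. As a description without a test, 766 genes (5.03%) were at least 2-fold higher in the lower LSD1cKO library than in the higher LSD1WT library, and 289 (1.9%) were at least 2-fold lower in the corresponding way.

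Among genes outside the interferon and lipid lists that reached 5 CPM and did not overlap between genotypes, Ly6a rose the most. Ly6a encodes SCA-1, a surface protein of blood stem cells that interferons also induce. It stood at 1.75 and 3.12 CPM in LSD1WT, against 58.7 and 100.5 CPM in LSD1cKO, a log2 fold change of 5.0 ± 0.17 (SE, adjusted p = 1.23e-171). Zbtb32, a zinc-finger repressor, was at 0.204 and 0.55 CPM in LSD1WT, against 6.9 and 7.41 CPM in LSD1cKO. Both genes were low in each LSD1WT library, and the choice required that the genotypes did not overlap. Gfi1b, which encodes the DNA-binding partner of LSD1, stood at 3.92 and 3.67 CPM in LSD1WT, against 46.8 and 57.5 CPM in LSD1cKO, a log2 fold change of 3.78 ± 0.17 (SE, adjusted p = 2.13e-104). Bst1, an ectoenzyme that consumes NAD, went from 3.96 and 4 CPM to 31.4 and 42.5 CPM. Nox1, a catalytic subunit of NADPH oxidase, had 0.571 and 0.66 CPM in LSD1WT and 6.08 and 9.24 CPM in LSD1cKO. These genes, too, were high in both LSD1cKO libraries and low in both LSD1WT libraries.

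The remaining large rises were Col4a6, Armcx2, Serinc2, P4ha3, Tnfrsf26, Id3, Tspan32, Sirpb1b, Syt11 and Sirpb1c, with log2 fold changes of 3.18 to 4.05. Col4a6 encodes a collagen chain of basement membranes, and Sirpb1b and Sirpb1c encode signal regulatory proteins of myeloid cells. Sirpb1b and Sirpb1c have close copies in the genome, so their counts may be shared among them. Of the 15 rises, 11 also passed with the 6 LSD1cKO libraries; the exceptions were Id3, Serinc2, P4ha3 and Col4a6. Tm4sf5 had no more than 3 counts in either LSD1WT library but over 1 CPM in both LSD1cKO libraries, at 1.06 and 1.11 CPM. It was the single such gene with the interferon and lipid lists, pseudogenes and unnamed genes left out. By difference in CPM the leading rises with at least a 2-fold change, outside both lists, were Ctss, S100a6, Mpeg1, Coro1a and Tmsb10. Ctss encodes cathepsin S, an antigen-processing protease, and went from 254 and 258 CPM to 488 and 651 CPM. Coro1a, an actin regulator of blood cells, went from 74.5 and 73.2 CPM to 233 and 287 CPM, and was the only one of the 5 to pass with the 6 LSD1cKO libraries (adjusted p = 0.0361).

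**Figure D1:**
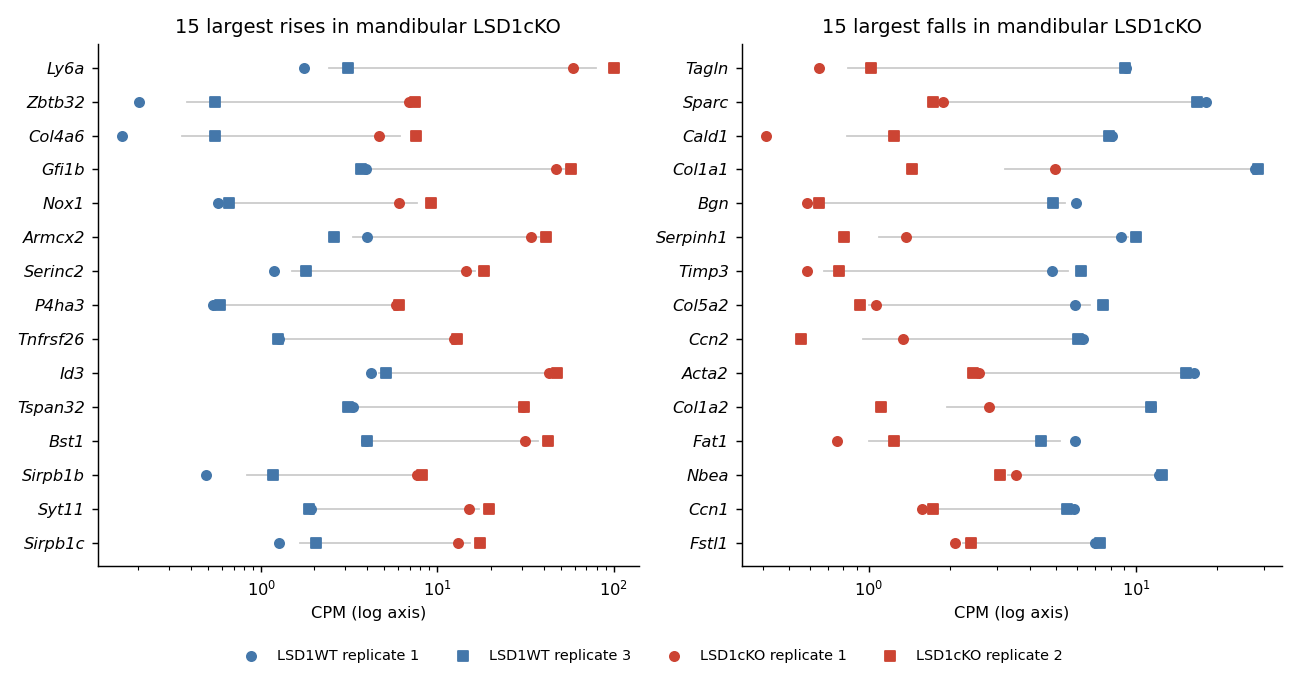
CPM (log axis) of the 15 genes with the largest rise (left) and the 15 with the largest fall (right) in the 4 mandible libraries, outside the interferon and lipid lists, with 1 point per library and a grey line between the group means. The genotypes do not overlap for any gene shown, because the choice required it, and Ly6a spans from 1.75 CPM in LSD1WT replicate 1 to 100.5 CPM in LSD1cKO replicate 2.

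Since Gfi1b rose while GFI factors guide LSD1 to DNA, the 250 bases before its RefSeq start are shown, beside those of Cd34, a progenitor gene that also rose. Capitals mark AAATCA, the core of the GFI motif, searched on both strands. The sequences are from RefSeq on GRCm38.p6, whereas the counts were made on GRCm39. Gfi1b lies on the minus strand at chr2:28621983-28622232 and Cd34 on the plus strand at chr1:194938571-194938820.
Gfi1b: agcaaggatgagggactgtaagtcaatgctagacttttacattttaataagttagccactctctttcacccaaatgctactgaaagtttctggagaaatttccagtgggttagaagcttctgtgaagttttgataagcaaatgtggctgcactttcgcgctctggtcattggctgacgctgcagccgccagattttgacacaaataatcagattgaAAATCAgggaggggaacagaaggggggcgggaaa
Cd34: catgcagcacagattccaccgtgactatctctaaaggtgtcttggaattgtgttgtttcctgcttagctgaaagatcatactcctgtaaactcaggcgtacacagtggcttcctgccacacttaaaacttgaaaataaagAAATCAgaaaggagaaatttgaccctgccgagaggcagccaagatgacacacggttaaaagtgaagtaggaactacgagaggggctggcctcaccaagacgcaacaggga
The match began 34 bases before the start in Gfi1b and 110 bases before it in Cd34. These 2 genes were chosen singly and not by a rule. The motif was in 4 of 15 windows of the 15 largest rises and in 1 of 12 windows of the 15 largest falls. AAATCA occurred in 11.5% of 617 such windows of the genes at least 2-fold higher outside the interferon and lipid lists and in 12.3% of 227 windows of the genes at least 2-fold lower. The share was 7.75% over the 13267 windows of all genes tested and 12.4% over all 32851 windows of the RefSeq table. GAGGAAG, the core bound by PU.1, the ETS factor of myeloid cells, was counted in the same way and does not overlap the first motif. It occurred in 19.4% of the windows of the higher genes, in 7.49% of those of the lower genes and in 11.2% over all genes tested. RefSeq windows were matched for 491 of the 701 higher genes, 178 of the 288 lower genes and 10431 of the 15214 gene symbols tested. These letters were counted without a test, and a match is not a bound site.

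Of 12 markers of stem and progenitor cells tested, 4 rose and none fell, and their median log2 fold change was 0.22, against -0.00179 over all genes tested. The 4 were Ly6a, Cd34, Procr and Gata2. Cd34, a sialomucin of progenitors and vessels, stood at 7.59 and 8.62 CPM in LSD1WT, against 58.2 and 70.5 CPM in LSD1cKO (log2 fold change 2.98 ± 0.15 (SE), adjusted p = 2.96e-82). Both LSD1cKO libraries were above both LSD1WT libraries. Kit and Flt3, the cytokine receptors of progenitors, and Myb, a progenitor transcription factor, did not pass. Kit was at 2.04 and 1.91 CPM in LSD1WT, against 2.06 and 2.72 CPM in LSD1cKO, so that the groups lay next to each other.

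Of 31 transcription factors of myeloid cells tested, 18 rose and none fell, with a median of 0.56. Ikzf1 (Ikaros), a lymphoid and myeloid regulator, went from 15.2 and 16 CPM to 47.1 and 58.6 CPM (log2 fold change 1.76 ± 0.14, SE). Klf4, which drives monocyte differentiation, went from 10.5 and 10.8 CPM to 33.5 and 41.3 CPM (log2 fold change 1.81 ± 0.15, SE). Both passed with the 6 LSD1cKO libraries, as did Gfi1b and Pparg. Irf5 and Irf8, which favour macrophage fates, rose with log2 fold changes of 1.29 and 0.79. Spi1, which encodes PU.1 itself, was at 628 and 614 CPM in LSD1WT, against 555 and 583 CPM in LSD1cKO and did not pass. The paralogue Gfi1 was near 0.4 CPM throughout and did not pass either.

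Of 12 genes listed as repressors of osteoclast differentiation, 8 rose and 2 fell, with a median of 0.64. Whether each member, Cebpa among them, acts as a repressor in these cells was not tested. Id3, an inhibitor of helix-loop-helix factors, stood at 4.2 and 5.1 CPM in LSD1WT, against 42.8 and 47.3 CPM in LSD1cKO, a log2 fold change of 3.27 ± 0.17 (SE). Id1, a relative, went from 1.1 and 1.14 CPM to 5.87 and 5.96 CPM. In both genes the LSD1cKO libraries lay close together and well above LSD1WT. Id2, Irf8, Bcl6, Cebpb and Cebpa also rose, by log2 fold changes of 0.50 to 0.96. Lgr4, a RANKL receptor that limits osteoclast formation, fell from 6.48 and 6.01 CPM to 1.92 and 2.75 CPM, and Tnfaip3 (A20), an inhibitor of NF-kappa B, fell by 0.34 on the log2 scale. None of the 12 passed with the 6 LSD1cKO libraries.

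The osteoclast list moved the other way and contained no rise. Of 26 genes tested, 22 fell, while 11.1% of all genes fell. The median was -0.65 for the list, and its summed level was 34640 and 34460 CPM in LSD1WT and 20720 and 20730 CPM in LSD1cKO. Itgb3, the beta chain of the integrin by which osteoclasts seal to bone, stood at 391 and 391 CPM in LSD1WT, against 185 and 189 CPM in LSD1cKO (log2 fold change -1.06 ± 0.12 (SE), adjusted p = 2.05e-16). Siglec15, a sialic acid receptor needed for fusion, went from 33 and 30.3 CPM to 12.6 and 14.6 CPM. Calcr, the calcitonin receptor, went from 44.9 and 41.2 CPM to 16.5 and 22.1 CPM. In these genes the LSD1cKO libraries lay at about the same level, below LSD1WT.

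Enzymes of resorption were among the genes that fell. Ctsk, the collagen-degrading cathepsin K, was at 7274 and 7129 CPM in LSD1WT, against 4323 and 3667 CPM in LSD1cKO (log2 fold change -0.85 ± 0.14, SE). Acp5, the tartrate-resistant phosphatase, was at 4838 and 4829 CPM against 2959 and 3037 CPM (log2 fold change -0.69 ± 0.13, SE). The regulators moved as well. Nfatc1, the master factor of the programme, was at 995 and 994 CPM against 684 and 623 CPM, and Prdm1, which silences macrophage factors, was at 219 and 219 CPM against 135 and 138 CPM. Tnfrsf11a (RANK) was at 290.3 and 288 CPM against 226 and 249 CPM and did not pass, and neither did Car2, Jdp2 or Fos. Fos, an early target of RANK, was at 271 and 281 CPM against 271 and 255 CPM. With the 6 LSD1cKO libraries 0 of the 26 genes passed, the smallest adjusted p being 0.157 for Slc9b2, a sodium-proton exchanger.

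The vacuolar ATPase pumps protons onto bone, and 11 of its 16 tested subunits fell while none rose (median -0.46). Atp6v1b2 was at 3018 and 2951 CPM in LSD1WT, against 1624 and 1646 CPM in LSD1cKO (log2 fold change -0.87 ± 0.13, SE). Atp6v0d2, the subunit enriched in osteoclasts, was at 1973 and 1954 CPM against 1225 and 1119 CPM. Atp6v0a1 and Atp6v0a2, which serve acidification in most cells, did not pass, with log2 fold changes of 0.08 and 0.03. Of 80 nuclear genes of oxidative phosphorylation, 45 fell and none rose, at a median of -0.34 and a range of -0.67 to 0.17. Ndufv1, a core subunit of complex I, went from 194 and 204 CPM to 136 and 139.8 CPM, and Atp5b, of the ATP synthase, went from 2353 and 2365 CPM to 1709 and 1747 CPM. DESeq2 called 19 of the 80 lower and 0 higher. None of the 80, and none of the 16 vacuolar ATPase subunits, passed with the 6 LSD1cKO libraries. Glycolysis genes did not share this: 3 of 20 rose, 1 fell and the median was 0.02, with Ldha at 1033 and 1029 CPM against 934 and 987 CPM.

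Iron handling genes fell in 6 of 14 cases and rose in 2. Tfrc, the transferrin receptor, stood at 2246 and 2255 CPM in LSD1WT, against 1177 and 1157 CPM in LSD1cKO (log2 fold change -0.95 ± 0.13 (SE), adjusted p = 1.47e-11). Steap4, a ferrireductase, went from 25.3 and 26.5 CPM to 6.66 and 10.1 CPM. Hfe, which restrains iron uptake at the transferrin receptor, moved upward from 3.1 and 4.33 CPM to 13.8 and 16.1 CPM, and was the gene of this list to pass with the 6 LSD1cKO libraries. Fth1 and Ftl1, the ferritin chains, did not pass, with log2 fold changes of -0.18 and -0.19.

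**Figure D2:**
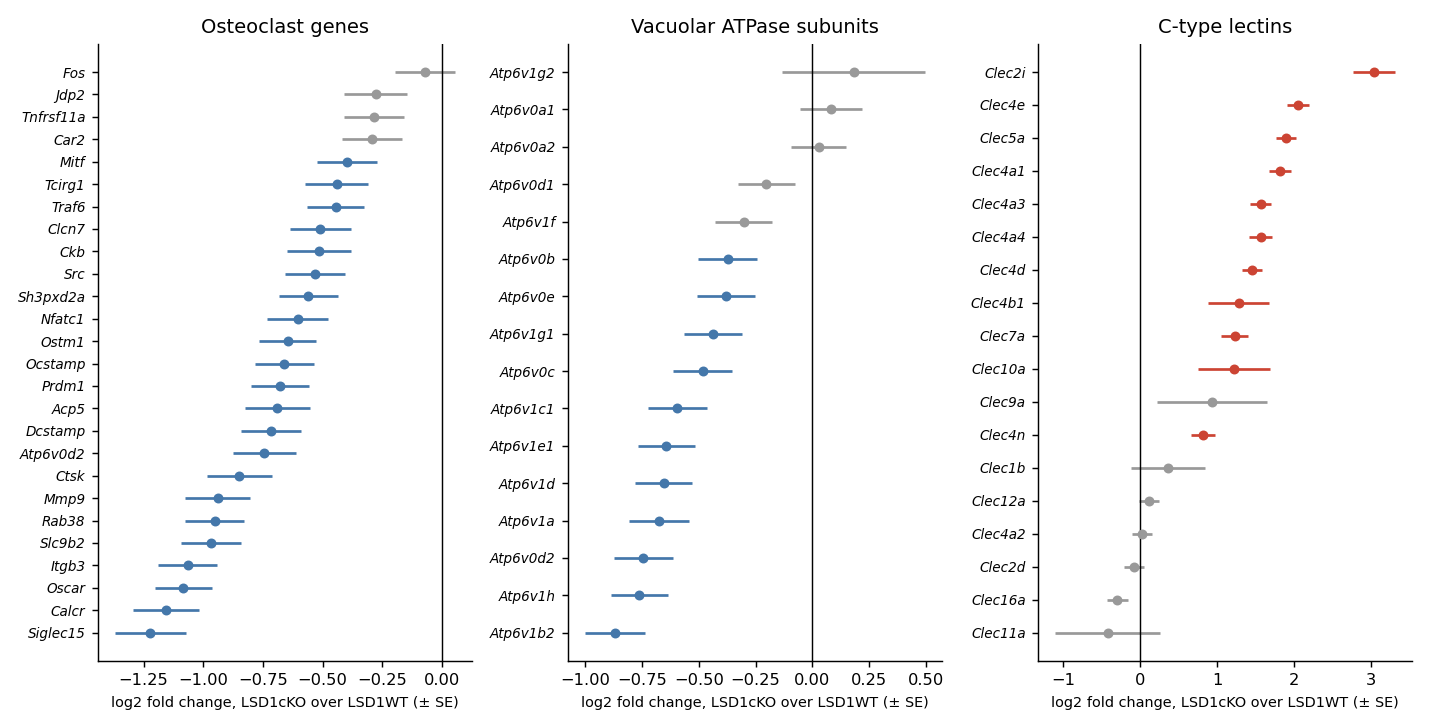
Log2 fold change (LSD1cKO over LSD1WT, with SE) of each tested member of the osteoclast, vacuolar ATPase and C-type lectin lists in the mandible libraries, where blue marks genes that fell, red genes that rose and grey genes that did not pass. Osteoclast genes run from Siglec15 at -1.22 to Fos at -0.07, and the lectins from Clec11a at -0.42 to Clec2i at 3.04.

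C-type lectins, the pattern receptors of myeloid cells, rose in 11 of 18 cases and fell in none (median 1.23). Clec4e (Mincle), a receptor for mycobacterial glycolipid, stood at 13.7 and 13.4 CPM in LSD1WT, against 52.3 and 60.9 CPM in LSD1cKO (log2 fold change 2.06 ± 0.14, SE). Clec2i, a ligand of natural killer receptors, went from 1.02 and 1.36 CPM to 9.47 and 10.3 CPM, and Clec7a (Dectin-1), the receptor for beta-glucan, from 7.42 and 8.18 CPM to 17.6 and 19.1 CPM. LSD1cKO was higher in both libraries for each of these. Clec12a, an inhibitory receptor, was at 419 and 421 CPM against 449 and 464 CPM and did not pass. The rises include Clec4a1, Clec4a3 and Clec4a4, close copies whose reads may be shared, and Clec5a, which is also in the interferon list. None of the 18 passed with the 6 LSD1cKO libraries.

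Receptors for chemokines and cytokines were divided. Chemokine receptors rose in 6 of 14 cases and fell in 2. Cxcr3, the receptor for interferon-induced chemokines, went from 0.326 and 0.55 CPM to 2.95 and 4.7 CPM, and passed with the 6 LSD1cKO libraries. Ccr1, which is abundant in osteoclast precursors, fell from 919 and 939 CPM to 719.9 and 596 CPM. Cytokine receptors rose in 11 of 29 cases and fell in 4. Il10ra, the ligand-binding chain for IL-10, went from 7.75 and 7.26 CPM to 21.6 and 24.8 CPM (log2 fold change 1.63 ± 0.17, SE). The 2 TGF-beta receptor chains fell, Tgfbr1 from 1058 and 1061 CPM to 595 and 580.1 CPM and Tgfbr2 from 286 and 290 CPM to 157 and 166 CPM. Csf1r, the M-CSF receptor, was at 1051 and 1049 CPM against 776 and 907 CPM and did not pass (adjusted p = 0.0565).

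Chemokines rose in 10 of 18 cases and fell in 1 (Ccl28), of which Cxcl10, Cxcl11 and Ccl5 belong to the interferon list. Cxcl16, a membrane-bound scavenger and chemokine, stood at 23.7 and 22.9 CPM in LSD1WT, against 124 and 145 CPM in LSD1cKO (log2 fold change 2.53 ± 0.14, SE), and passed with the 6 LSD1cKO libraries. Ccl9, the chemokine most abundant in osteoclasts, was at 3086 and 3059 CPM against 2934 and 2674 CPM and did not pass. DESeq2 called 4 chemokines higher and 0 lower. Purinergic and adenosine receptors rose in 6 of 16 cases and fell in 2. P2ry6, a receptor for UDP, went from 14.1 and 12.9 CPM to 29.8 and 38.2 CPM, and P2rx7, the ATP-gated channel linked to the inflammasome, from 13.3 and 13.8 CPM to 23.3 and 29.2 CPM.

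Of 25 integrin genes, 8 rose and 4 fell. Itgal, the leukocyte integrin LFA-1, stood at 11.8 and 13.1 CPM in LSD1WT, against 73.9 and 105 CPM in LSD1cKO (log2 fold change 2.84 ± 0.14, SE), and Itgam (CD11b) went from 47.5 and 51 CPM to 105 and 146 CPM. Itgb3 and its partner Itgav fell, the latter from 1622 and 1600 CPM to 1085 and 1198 CPM. Of 24 tetraspanins, 8 rose and 4 fell. Tspan32 went from 3.3 and 3.12 CPM to 30.5 and 30.8 CPM (log2 fold change 3.25 ± 0.18, SE), and Cd81, a partner of many receptors, from 11.5 and 10.7 CPM to 32.3 and 46.8 CPM. Cd9, which restrains or aids fusion depending on the cell, was at 343 and 334 CPM against 445 and 414 CPM and rose by a small amount.

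Monocyte markers rose in 6 of 11 cases and fell in none, and their summed level was 82.8 and 90.5 CPM in LSD1WT and 200 and 304 CPM in LSD1cKO. Vcan, a monocyte proteoglycan, made up much of this, with 14.7 and 17.1 CPM against 73.7 and 149 CPM. Ly6c2, the marker of classical monocytes, was at 7.22 and 5.57 CPM against 7 and 7.35 CPM and did not pass. Resident macrophage markers rose in 7 of 15 cases and fell in none, a count that was 4 with RLE scaling, 3 with upper-quartile scaling, 2 with DESeq2 and 4 without LSD1WT replicate 1, with sums of 128 and 130.5 CPM against 218 and 357 CPM. Adgre1 (F4/80) went from 47.5 and 49.7 CPM to 117 and 187 CPM, whereas Mertk and Mrc1 did not pass. Of the 17 macrophage markers Vsig4 was at 3 counts or fewer in all 4 libraries. Dendritic and MHC class II markers rose in 2 of 13 cases and fell in none, with sums of 337 and 336 CPM against 466 and 534 CPM, and H2-Ab1 did not pass. Neutrophil markers rose in 2 of 14 cases (Cebpe and Mmp8), with sums of 178 and 176 CPM against 167 and 198 CPM. For these and the dendritic markers the share that rose was near the 14.1% of all genes. Megakaryocyte markers rose in 3 of 7, and eosinophil markers moved by 1 gene each way. B cell markers gave 2 tested genes, T and NK cell markers 3 and mast cell markers 1, with none called, and none of the 11 erythroid markers was tested. The part of a changed cell mixture in the other lists was not tested.

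**Figure D3:**
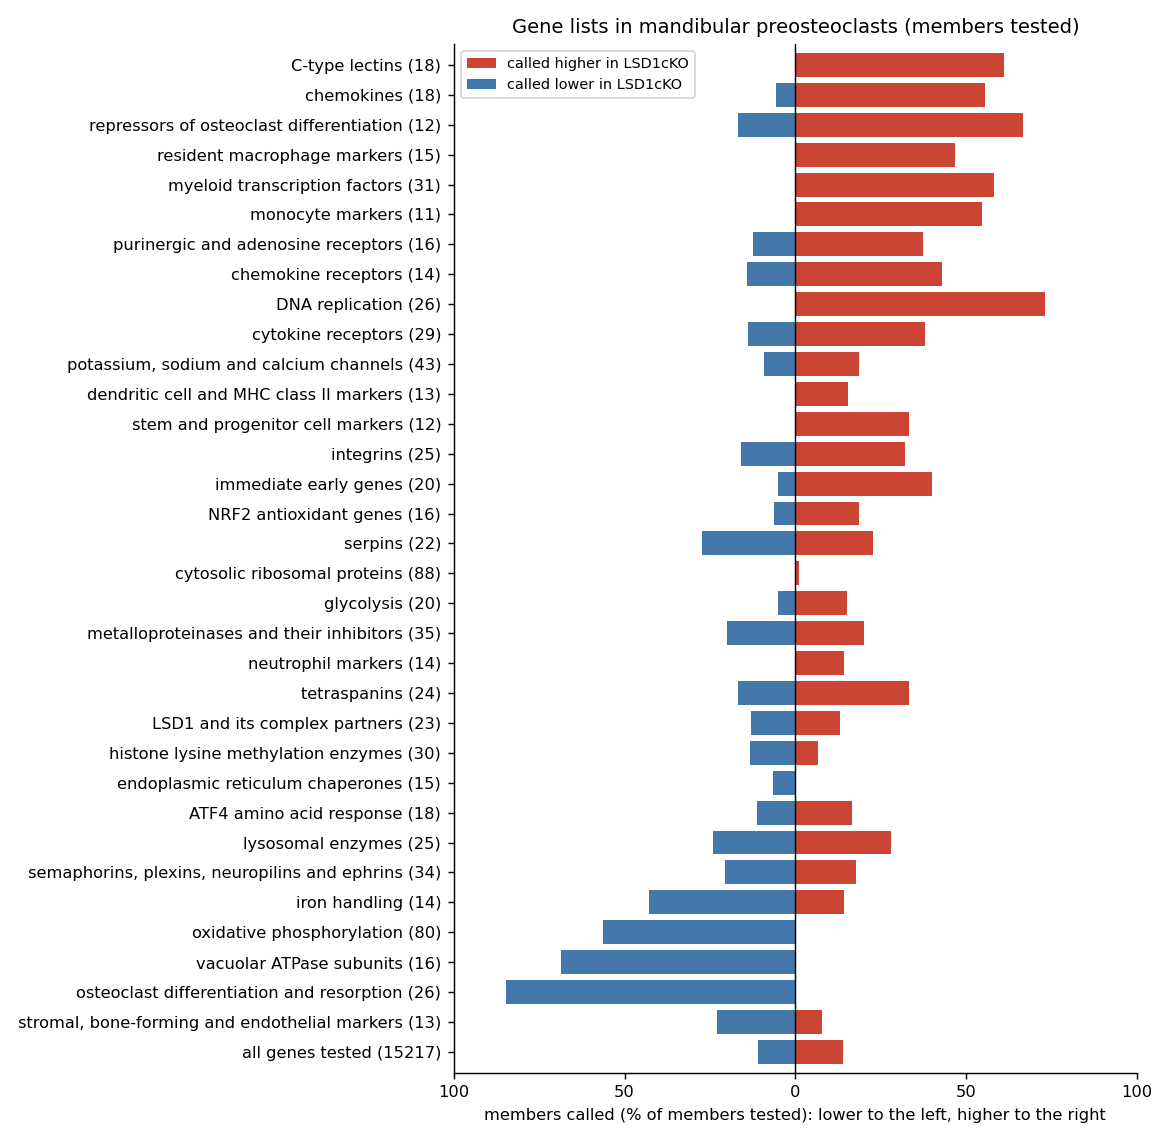
Share of tested members called higher (red, to the right) or lower (blue, to the left) in mandibular LSD1cKO for each list with at least 10 members tested, ordered by median log2 fold change, with the number tested in brackets and all 15217 genes at the bottom. Osteoclast, vacuolar ATPase and oxidative phosphorylation genes have blue bars alone, and C-type lectins, myeloid transcription factors and DNA replication genes have red bars alone.

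The 15 largest falls included collagens and contractile genes, which are best known from stromal cells, a cell type that LysM-Cre does not target. Sparc, a matrix glycoprotein, stood at 18.2 and 16.9 CPM in LSD1WT, against 1.89 and 1.73 CPM in LSD1cKO (log2 fold change -3.27 ± 0.22 (SE), adjusted p = 1.06e-46). Col1a1, the main collagen of bone, was at 27.8 and 28.5 CPM against 4.98 and 1.45 CPM. Acta2, smooth-muscle actin, was at 16.4 and 15.3 CPM against 2.58 and 2.44 CPM. Each was low in both LSD1cKO libraries, without overlap, as the choice required. Tagln, Cald1, Bgn, Serpinh1, Timp3, Col5a2, Ccn2, Col1a2, Fat1, Nbea, Ccn1 and Fstl1 made up the rest, with log2 fold changes of -3.44 to -1.66. Timp3 and Acta2 passed with the 6 LSD1cKO libraries, and the others did not. Ddr2, a collagen receptor, was above 1 CPM in both LSD1WT libraries (1.92 and 1.5 CPM) and at 3 counts or fewer in both LSD1cKO libraries. With the interferon and lipid lists, pseudogenes and unnamed genes left out, it was the single such gene.

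The list of 16 stromal, bone-forming and endothelial markers summed to 58.4 and 55.2 CPM in LSD1WT and to 30.9 and 26.1 CPM in LSD1cKO. Without Col1a1 and Col1a2, which are themselves among the 15 falls, the sum was 19.3 and 15.4 CPM in LSD1WT and 23.1 and 23.6 CPM in LSD1cKO. Runx2 made up much of that remainder, at 12.52 and 9.535 CPM in LSD1WT and 17.89 and 17.95 CPM in LSD1cKO. The median log2 fold change of the list was -1.05. It was -0.27 without LSD1WT replicate 1 and -0.08 without LSD1WT replicate 3. These medians cover different members, since 13 were tested with both libraries, 12 without replicate 1 and 11 without replicate 3. Of 13 tested, Alpl, Col1a1 and Col1a2 fell and Runx2, which myeloid cells also express, rose. Bglap, Cxcl12 and Ibsp were at 3 counts or fewer in all 4 libraries. In the femur libraries the same list summed to 7.78 to 36.8 CPM. The part of stromal cells carried into the cultures in these falls was not tested. Serpins and metalloproteinases moved in both directions. Serpinh1, the collagen chaperone, fell from 8.73 and 9.94 CPM to 1.37 and 0.803 CPM, and Serpinb1a, an inhibitor of neutrophil proteases, rose from 7.79 and 6.01 CPM to 34.7 and 33.8 CPM. In all, 5 of 22 serpins rose and 6 fell, and 7 of 35 metalloproteinases and their inhibitors rose and 7 fell. Among these Mmp14 fell from 554 and 565 CPM to 292 and 323 CPM.

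By difference in CPM the leading falls with at least a 2-fold change were Itgb3, Rn18s-rs5, Tmem267, Kbtbd11 and Mst1r. Kbtbd11 was at 186 and 187 CPM in LSD1WT, against 72.2 and 63.8 CPM in LSD1cKO (log2 fold change -1.45 ± 0.12, SE). Mst1r, the receptor for macrophage-stimulating protein, was at 192 and 190.2 CPM against 102 and 73 CPM. Rn18s-rs5 differed more within LSD1WT than between LSD1WT replicate 1 and LSD1cKO.

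One LSD1cKO library held enamel genes. Ambn, which encodes ameloblastin and was chosen after its values were seen, stood at 0.122 and 0.11 CPM in LSD1WT, at 0 in LSD1cKO replicate 1 and at 15.3 CPM in replicate 2. Amelx followed, at 6.12 CPM in LSD1cKO replicate 2 and at most 0.0367 CPM in the other 3. Odam was at 5.79 and 6.09 CPM in LSD1WT, against 0.961 and 18.3 CPM in LSD1cKO. The test called these 3 genes higher although the genotypes overlapped, and 22 such genes are among the 3826 called.

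Chromatin genes were mostly level. Of 23 genes of LSD1 and its partners, 3 rose (Gfi1b, Snai1 and Mta3) and 3 fell (Kdm1a, Kdm1b and Hmg20b). Both shares were near the 14.1% and 11.1% of all genes. Kdm1b, the paralogue of Kdm1a, was at 27.2 and 27.5 CPM against 21.9 and 19.6 CPM. Rcor1 (CoREST) was at 91.9 and 88.2 CPM against 83 and 88.8 CPM and did not pass. Of 30 enzymes of histone lysine methylation, 2 rose (Suv39h1 and Ezh2) and 4 fell (Dot1l, Kdm5b, Kdm6b and Kmt2c), each by less than 0.5 on the log2 scale. LSD1 loss is known to release neuronal and germline genes in other cells. Here 8 of 25 neuronal genes had enough counts to be tested and 2 rose. L1cam, an adhesion molecule, went from 6.08 and 6.12 CPM to 22.6 and 34.1 CPM. Calb1, the other, had reads in LSD1cKO replicate 2 alone, the library that held the enamel genes. Whether these reads share a source was not tested. Of 20 germline and 2-cell-stage genes, 1 was tested (Ddx4) and did not pass. Of 9 imprinted genes tested, Kcnq1ot1 fell.

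DNA replication genes rose in 19 of 26 cases and fell in none, by small amounts (median 0.49). None of the 26 passed with the 6 LSD1cKO libraries. Mcm3, a subunit of the replicative helicase, went from 57.4 and 59 CPM to 98 and 115 CPM (log2 fold change 0.87 ± 0.13, SE), and DESeq2 called 12 of the 26. Cyclin-dependent kinase inhibitors rose in 3 of 8 cases and fell in 2. Immediate early genes rose in 8 of 20 cases and fell in 1 (Fosl2). Housekeeping lists moved little. Of 88 cytosolic ribosomal protein genes 1 rose (Rpl39l) and none fell, and of 15 endoplasmic reticulum chaperones 1 fell (Dnajb9) and none rose. Of 18 genes of the amino acid response, 3 rose and 2 fell. Of 16 NRF2 targets, 3 rose and 1 fell. Nqo1, a quinone reductase, went from 8.28 and 8.54 CPM to 26.1 and 26.3 CPM, whereas Hmox1 and Txnrd1 did not pass. Lysosomal enzymes rose in 7 of 25 cases and fell in 6, with Arsb at 1173 and 1184 CPM against 560 and 626 CPM. Ion channels rose in 8 of 43 cases and fell in 4, and guidance molecules of the semaphorin and ephrin families rose in 6 of 34 and fell in 7. Kcnq1ot1, a non-coding RNA also in the imprinted list, is among the 4 of the channel list that fell. The shares that rose in the channel, guidance, amino acid response and NRF2 lists were near the 14.1% of all genes. Efnb2, an ephrin of osteoclasts that signals to osteoblasts, went from 25.9 and 25.1 CPM to 9.37 and 11.5 CPM. The epithelial and muscle list rose in 2 of 6 cases, Tnnt3 and Cdh1, both under 3 CPM.

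The values in femur cultures were set beside those of the mandible. The ligated femur and mandible libraries have separate LSD1WT and LSD1cKO libraries, although the labels give them partly the same mouse numbers. Of the 701 genes at least 2-fold higher in the mandible outside the interferon and lipid lists, 52.6% were higher without overlap in ligated femur LSD1cKO and 1.85% were lower. Over all genes these shares were 14.6% and 19.5%. In unligated femur, 45.9% were higher and 0.856% lower, against 9.63% and 8.54% over all genes. Of the 288 genes at least 2-fold lower, 16.3% were lower in ligated femur and 10.4% in unligated femur, against 19.5% and 8.54% of all genes. Of these 288 genes, 32.6% were over 10-fold lower in femur LSD1WT replicate 2 than in replicate 1 in both femur cultures, against 4.61% of all genes, a count made after the values were seen. Of the 15 largest rises, 13 were higher without overlap in each femur culture, the exceptions being Id3 and Tnfrsf26. Of the 15 largest falls, 6 were lower without overlap in ligated femur and 0 in unligated femur.

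Gfi1b, Ly6a and Bst1 were high in all 6 LSD1cKO libraries and low in all 6 LSD1WT libraries. Gfi1b ran from 38.4 to 57.5 CPM in LSD1cKO and from 0.0828 to 4.07 CPM in LSD1WT. Bst1 ran from 31.4 to 73.1 CPM in LSD1cKO and from 3.93 to 8.24 CPM in LSD1WT. For Cd34 the femur LSD1cKO libraries held 7.58 to 16.4 CPM, below both mandible LSD1cKO libraries. In edgeR's fit of the 12 libraries, the difference between the mandible effect and the ligated femur effect on Cd34 did not pass (adjusted p = 0.9999). Over 15425 genes edgeR called 0 such differences at an adjusted p under 0.05, and 149 at an unadjusted p under 0.05. Osteoclast genes could not be read in the same way, because femur LSD1WT replicate 2 had almost none. Ctsk stood at 5.9 CPM in it in ligated mice and at 17.1 CPM in unligated mice, against 7596 and 7872 CPM in replicate 1. Itgb3 was at 13.5 and 10.6 CPM there, against 368 and 277 CPM in replicate 1 and 51.5 to 184 CPM in the 4 femur LSD1cKO libraries.

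**Figure D4:**
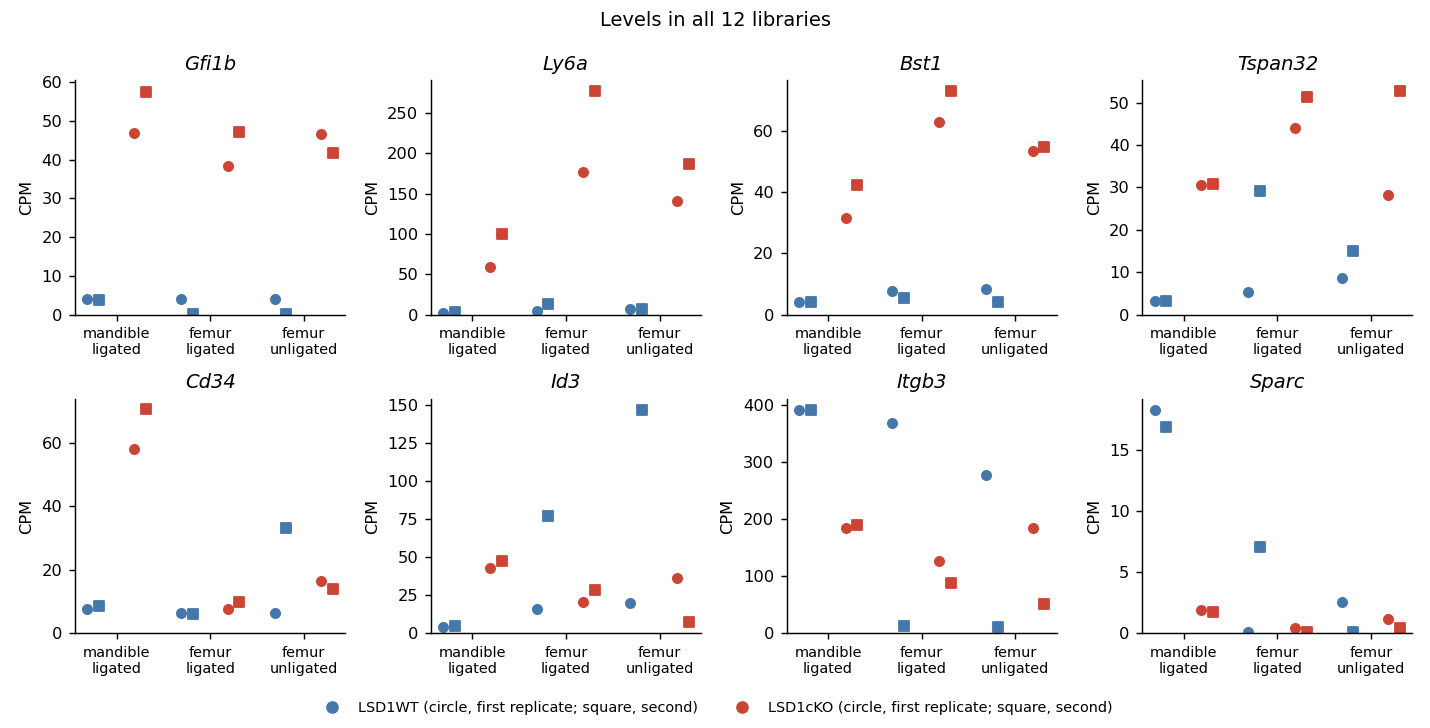
CPM of 8 genes in all 12 libraries (linear axes from 0), with LSD1WT in blue and LSD1cKO in red and 1 point per library, for the mandible of ligated mice and the femur of ligated and unligated mice. Gfi1b, Ly6a and Bst1 separate the genotypes in each culture, Cd34 is high in mandibular LSD1cKO, and Itgb3 and Id3 differ between the femur LSD1WT libraries themselves.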

How the data were processed

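The authors deposited raw read counts per gene for 57010 Ensembl mouse genes in each of 12 polyA libraries. The submitters' processing notes name HISAT2 2.1.0, featureCounts, FastQC, edgeR and the GRCm39 build, with no strand or filter settings. Groups were taken from the sample titles. The 2 mandible LSD1WT libraries were summed into 1 sample. Genes passing filterByExpr were tested in R 4.3.3 with edgeR 4.0.16 (TMM factors, glmQLFit and glmQLFTest), with Benjamini-Hochberg adjustment over all genes tested and a threshold of 0.05. With 1 LSD1WT sample and 2 LSD1cKO samples, 1 residual degree of freedom was left, and LSD1WT was assumed to vary like LSD1cKO. Each SE was worked back from the test, as the absolute log2 fold change over the square root of the F statistic. For Ly6a it was 0.17 in this fit and 0.58 in the fit of the 12 libraries. The same contrast of the 2 mandible groups was tested with the summed LSD1WT sample and 6 LSD1cKO libraries, each LSD1cKO condition being its own group. It was also tested with 12 libraries in 6 conditions. DESeq2 1.42.0, other scalings, filters and left-out libraries were alternatives. CPM used TMM factors of the 12 libraries. A count of 3 was the floor, which was 0.0927 to 0.122 CPM in the mandible libraries and covers counting error only. The scripts were tested on simulated counts. Figures were drawn with matplotlib 3.10.9 in Python 3.11.15.

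The members and gene lists were chosen with earlier results of these data known. Genes named were Kdm1a and Lyz2, the 15 largest rises and 15 largest falls at 5 CPM or more without overlap, the 5 largest CPM differences each way with at least a 2-fold change, up to 4 members of each list, genes at the floor in 1 genotype and at 1 CPM or more in the other, and list members needed to say that they did not pass. Other list members named as risen or fallen, and Acp5, Ctsk, Mmp9, Ambn, Amelx, Odam, Krt5 and Krt14, were chosen after their values were seen. Lists were described by counts and medians, without a set test. Pseudogenes and unnamed genes were left out of the named genes. A few genes are not reported here.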

Additional observations from a re-analysis of the deposited data

Results flagged for a closer look

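Of the named genes, 4 were higher without overlap in mandibular LSD1cKO and lower without overlap in ligated femur LSD1cKO, and the test of the difference between both effects (edgeR, 12 libraries) passed for none of them after adjustment (adjusted p = 0.9999 each). Id1, the helix-loop-helix inhibitor, had log2 fold changes of 2.40 (mandible) and -2.36 (ligated femur). The unadjusted p of this test of the difference was 0.0167, and the unadjusted p-values below are from the same test. In ligated femur Id1 stood at 3.17 and 12.5 CPM in LSD1WT, against 1.32 and 1.71 CPM in LSD1cKO. Cxcl14, a chemokine of epithelium and macrophages, had 1.83 and -2.36 (unadjusted p = 0.0497), with 22.3 CPM in femur LSD1WT replicate 2 and 2.29 to 2.71 CPM in the other 3 ligated femur libraries. Marco, a scavenger receptor, had 1.60 and -2.26 (unadjusted p = 0.095), and in the mandible its level was 2.13 CPM in LSD1cKO replicate 1 and 8.65 CPM in replicate 2. Mpo, the neutrophil peroxidase, had 0.15 and -1.01 (unadjusted p = 0.119) and was not called in the mandible. In ligated femur, LSD1WT replicate 2 was above replicate 1 for all 4 genes.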

How the results depend on the processing

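The count of 3826 genes called in the mandible libraries stayed between 3321 and 3498 under RLE or upper-quartile scaling and under other filters, and was 3590 and 3641 without LSD1WT replicate 1 or 3. With the LSD1WT libraries as 2 samples it was 5434. It fell to 1901 with DESeq2, to 1305 with an added 2-fold minimum and to 134 with the spread of the 6 LSD1cKO libraries. It was 0 without LSD1cKO replicate 1 and 0 without LSD1cKO replicate 2, where the spread came from the femur LSD1cKO pairs. With the 12 libraries the count of 0 became 45 without a filter on low counts and 146 with DESeq2. Leaving out 1 library in turn gave 0 to 24 genes, with 24 and 17 without ligated femur LSD1WT replicate 1 or 2, and 2 without either unligated femur LSD1WT library. With the replicate number as a block (replicate block), which the labels do not tie to shared mice across all conditions, it remained 0. The count of 1055 genes at least 2-fold apart was 1428 to 1772 without 1 mandible library, highest without LSD1cKO replicate 1, and 2284 at a 1.5-fold limit. The log2 fold change of Odam reversed to -2.59 without LSD1cKO replicate 2. Of 180 named genes, 176 kept their call under RLE scaling, 151 under DESeq2 and 49 with the 6 LSD1cKO libraries. The median of 5 lists (glycolysis, metalloproteinases, neuronal genes, neutrophil markers and tetraspanins), each within 0.0644 of 0, changed sign without an LSD1WT library or with LSD1WT as 2 samples. A count of risen or fallen members moved by over 1.5 times in 25 of 45 lists with DESeq2, in 6 with RLE or upper-quartile scaling, and in 8 and 1 without LSD1WT replicate 1 or 3. Scaling moved the median of all genes by under 0.01. Depth was 24101140 counts or more per mandible library, and each genotype had 2 libraries.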

Other observations

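Other genes outside the lists rose in the mandible and also passed with the 6 LSD1cKO libraries, and are named here after their values were seen. Slc6a4, the serotonin transporter, stood at 14.2 and 14.1 CPM in LSD1WT, against 89.5 and 113 CPM in LSD1cKO (log2 fold change 2.84 ± 0.14, SE). Spn (CD43), a leukocyte sialoglycoprotein, went from 23 and 27.8 CPM to 139 and 185 CPM, and Fgr, a kinase of the Src family, from 19.5 and 18.3 CPM to 103 and 136 CPM. The Fc gamma receptors Fcgr2b and Fcgr4 went from 9.18 and 8.58 CPM to 48.1 and 52.1 CPM and from 1.67 and 2.42 CPM to 9.85 and 12.8 CPM. Ptgs1 (COX-1), which makes prostaglandin precursors, went from 14.2 and 13.4 CPM to 57.4 and 65.7 CPM. Ncf1, a cytosolic subunit of the phagocyte oxidase, went from 32.8 and 31.4 CPM to 98.7 and 121 CPM. In each of these genes both LSD1cKO libraries were above both LSD1WT libraries, as in 5207 of all 15217 genes tested.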
